A study of Homo sapiens with 6 samples.

Results

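The complement system of epithelial cells was examined through 9 genes in HT29, a human colorectal adenocarcinoma cell line. The genes were taken by symbol as complement components (C3, CFB, C1R and C1S), complement regulators (SERPING1, CD46, CD55 and CD59) and LCN2, and all 9 were among the 28278 gene symbols counted in every library. The cells received either siRNA against ALDOA, the glycolytic enzyme aldolase A (siALDOA), or a scrambled siRNA (siControl), and RNA was isolated 48 h later. Each group had 3 libraries labelled as biological replicates, and whether these came from separately grown cultures is not stated, so that p-values measure the spread between these libraries. All libraries come from 1 cell line, and how many siRNAs against ALDOA were used for them is not given in the sources used here. The total on genes was 28166497, 28690395 and 27277538 counts for siALDOA replicates 1, 2 and 3, and 33237914, 31973122 and 31899091 counts for siControl. The share of ribosomal RNA genes in these totals was 13.1%, 7.71% and 8.11% for siALDOA and 17.4%, 15.3% and 8.15% for siControl. The ranges of these shares overlapped only through siControl replicate 3, and every siControl total was above every siALDOA total. Values per library are given for replicates 1, 2 and 3 in this order throughout.

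Complement is a cascade of plasma and tissue proteins that marks surfaces for uptake or lysis. The first proteases of the classical pathway are C1r and C1s, the alternative pathway is amplified by factor B, and both pathways converge on the cleavage of C3. Host cells restrain it with the C1 inhibitor encoded by SERPING1 and with the membrane proteins CD46, CD55 and CD59, and intestinal epithelium is known to make several of these proteins as well as the antibacterial lipocalin LCN2.

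ALDOA itself was measured first. Its level was 283, 305 and 279.7 CPM (counts relative to the library's TMM-scaled total) in the siALDOA libraries and 592, 637 and 668 CPM in the siControl libraries. All siALDOA libraries lay below all siControl libraries, as the labels state. Its log2 fold change was -1.13 with a standard error (SE) of 0.060 (adjusted p = 6.95e-11 by edgeR's quasi-likelihood test with Benjamini-Hochberg adjustment over 15307 tested genes).

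With siALDOA the mRNA of the alternative pathway protease CFB rose about 2.12-fold, while the mRNAs of the membrane regulators CD55 and CD46 fell to a smaller extent. CD59, LCN2 and C1R did not pass the test, and C3, C1S and SERPING1 had too few counts to be tested. Thus 6 of the 9 genes were tested, of which 1 was higher and 2 were lower at an adjusted p < 0.05. Without siALDOA replicate 2, without siALDOA replicate 3 and under scaling by library totals only, 1 was lower, since CD46 lost its call. Over all tested genes, 668 (4.36%) were higher and 810 (5.29%) were lower. Without siControl replicate 2 these counts were 359 and 490, and without siControl replicate 3 they were 363 and 471. With scaling by library totals only, 76.3% of the called genes were higher, compared with 45.2% in the main analysis. The groups did not overlap in CPM for 5 of the 6 tested members and for 27.7% of all tested genes. The median log2 fold change was -0.16 over the 6 tested members and 0.00 over all tested genes.

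**Figure D1:**
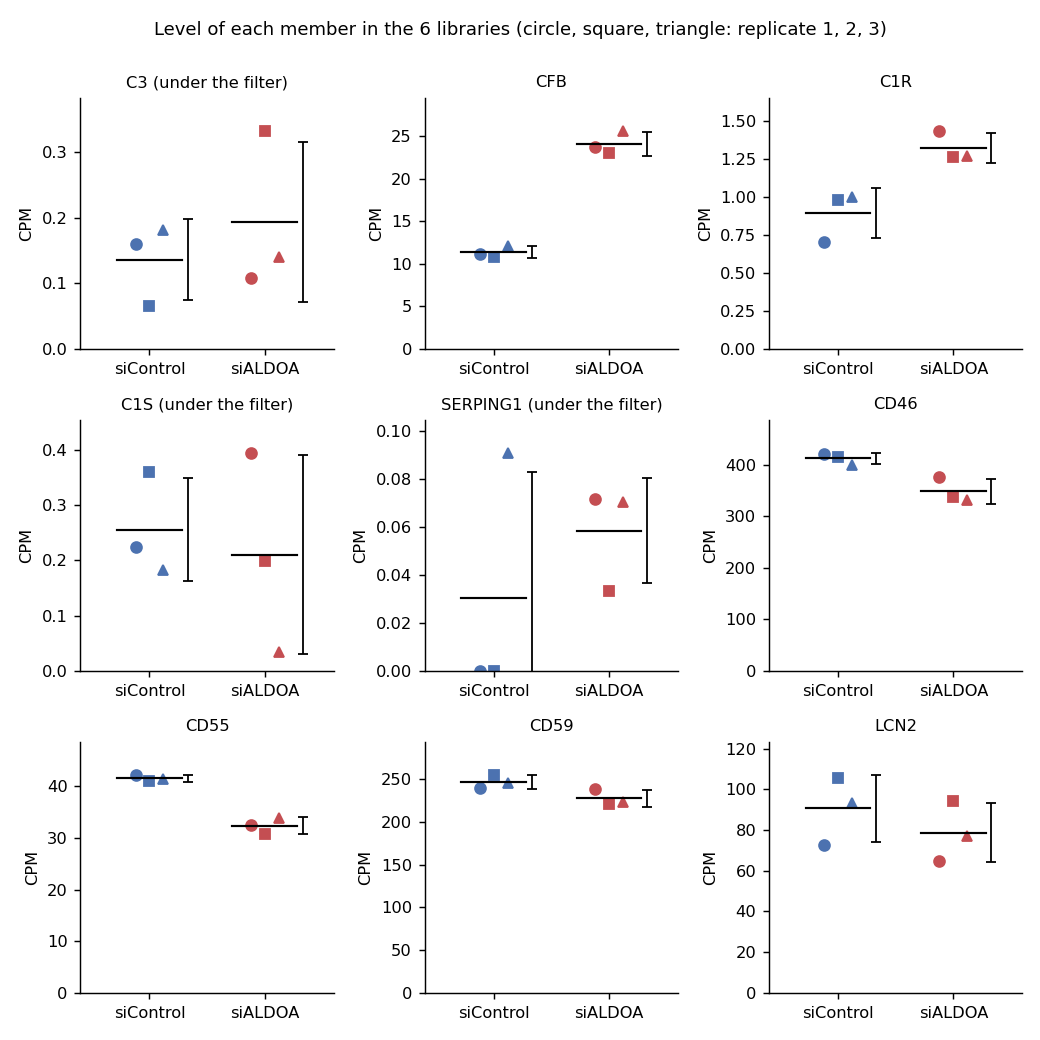
Level of the 9 genes in CPM (y axis, from 0, scaled per gene) in the 3 siControl (blue) and 3 siALDOA (red) libraries. Symbols mark the replicate number, horizontal lines the group means and vertical bars 1 SD (n = 3), clipped at 0 for SERPING1. CFB lies between 23.0 and 25.6 CPM with siALDOA and between 10.8 and 12.1 CPM with siControl.

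CFB encodes factor B, which supplies the catalytic subunit of the C3 convertase of the alternative pathway. The gene (ENSG00000243649) lies in the class III region of the major histocompatibility complex, at chr6:31945650-31952086 on the plus strand of hg38. The 250 bases before its RefSeq start (GRCh38.p14, chr6:31945845-31946094, plus strand) are shown because CFB was the member with the largest log2 fold change among those tested. Capitals mark, from left to right, an interferon-stimulated response element (ISRE) core, a kB consensus and an interferon-gamma activated site (GAS).

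CFB: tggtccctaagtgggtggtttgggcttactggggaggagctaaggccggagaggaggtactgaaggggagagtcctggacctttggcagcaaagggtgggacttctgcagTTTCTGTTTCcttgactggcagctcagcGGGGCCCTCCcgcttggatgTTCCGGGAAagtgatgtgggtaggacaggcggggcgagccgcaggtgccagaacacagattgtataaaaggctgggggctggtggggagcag

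The letters searched on both strands were GAAANNGAAA for the ISRE core and TTCNNNGAA for the GAS, and the kB consensus was searched under its usual definition. The ISRE core was found on the minus strand 140 to 131 bases before the start. The kB consensus was found 112 to 103 bases before the start and the GAS 92 to 84 bases before it, and the 3 matches do not overlap each other. Of all 35116 RefSeq windows of the same length, 3.02% held the ISRE core, 6.57% the GAS and 9.96% the kB consensus. In GENCODE release 44, 120 bases of this window, those nearest the start, lie in alternative first exons of CFB, and no base of it is coding. These matches describe the sequence, and binding was not measured.

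CFB stood at 23.7, 23.0 and 25.6 CPM in the siALDOA libraries and at 11.1, 10.8 and 12.1 CPM in the siControl libraries. The lowest siALDOA library was well above the highest siControl library, and within each group replicate 3 was highest. The log2 fold change was 1.09 (SE 0.098, adjusted p = 1.40e-07 by edgeR), on group means of 24.1 ± 1.38 CPM and 11.3 ± 0.689 CPM (SD, n = 3 each). Across the alternatives in processing it stayed between 1.04 and 1.16 and passed the threshold in 15 of 15. Among the 668 genes called higher, CFB ranked 59 by log2 fold change and 57 by p. In bulk RNA, a change in the share of cells that express a gene and a change in its level per cell cannot be told apart.

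Genes within 100000 bases of CFB, looked up after its value was known, were also read from the table. Of 16 annotated genes there, 12 were tested, 0 were called lower and 1 was called higher (4.36% over all tested genes), NEU1, which encodes a lysosomal sialidase and lies 82745 bases away. NEU1 had a log2 fold change of 0.30 (SE 0.081, adjusted p = 0.0211 by edgeR). C2, whose annotated end overlaps CFB by 24 bases, encodes the classical pathway counterpart of factor B and had a log2 fold change of 0.04 (SE 0.22). NELFE, an RNA-binding subunit of the negative elongation factor complex, lies on the other strand with its annotated 3' end 1 base after that of CFB, and had a log2 fold change of 0.03 (SE 0.063). Over the 12 tested neighbours the values ran from -0.06 to 0.84, the latter for TNXB, an extracellular matrix glycoprotein at 0.374 CPM on average (SE 0.64). The strand setting of the counting is not stated, so that reads shared at these ends could not be assigned by strand. A readthrough gene of GENCODE that is not among the counted symbols (ENSG00000244255) overlaps CFB by 6399 bases on the same strand, and its reads could be among those of CFB.

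Interferon-induced genes are set beside CFB because factor B is known as an interferon-responsive gene in epithelial cells. A list of such genes was written with earlier results of these data known, so that its counts and shares are descriptive only. All 20 of its genes were tested, and 20 were higher with siALDOA, beside 4.36% over all tested genes. Their median was 1.34 on the log2 scale, compared with 0.00 over all tested genes. The smallest p-values belonged to IFI44L, of unsettled molecular function, IFIT1, which binds foreign RNA ends, and RSAD2, the antiviral enzyme viperin. Their log2 fold changes were 1.77, 1.76 and 2.32. The most abundant gene of the list by CPM, OAS3, which makes oligoadenylates that activate RNase L, had a log2 fold change of 1.23 (SE 0.075). The log2 fold changes of the list ran from 0.27 for IRF9 to 2.32 for RSAD2, and that of CFB lay next below that of OAS1 (1.12). For IRF9, a subunit of the interferon-stimulated transcription factor, the call was kept in 9 of 15 alternatives. It was lost without each of the libraries other than siALDOA replicate 1, and with the ribosomal RNA share as a covariate. Among the siALDOA libraries, replicate 1, which had the largest share of ribosomal RNA genes (13.1%), was lowest for 20 of the 20 interferon-induced genes. CFB, at 23.7 and 23.0 CPM in replicates 1 and 2, did not follow this order. Of the 16 listed genes with RefSeq windows (22 windows), 9 held the ISRE core, 5 the GAS and 3 the kB consensus in at least 1 window. Over all 27305 symbols with windows, counted in the same way, these shares were 3.71%, 8.09% and 11.8%.

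**Figure D2:**
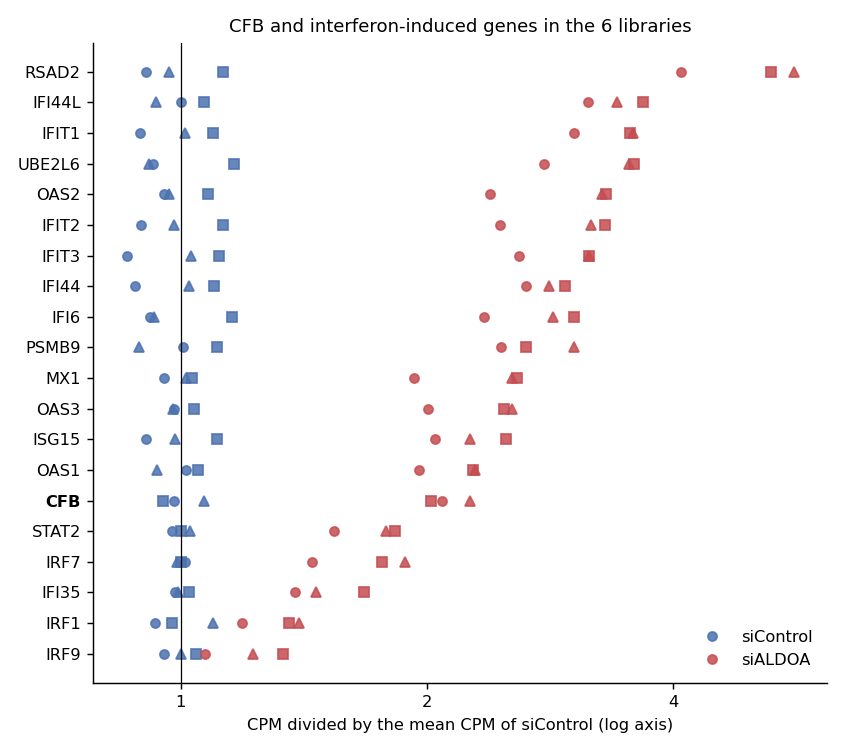
CPM of CFB (bold) and of 19 of the interferon-induced genes in each library, divided by the gene's mean CPM in siControl (x axis, log scale), with siControl in blue, siALDOA in red and symbols for the replicate number as circle, square and triangle for 1, 2 and 3. Genes are ordered by log2 fold change, and CFB lies next below OAS1.

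The genes whose log2 CPM followed CFB most closely over the 6 libraries, among those of at least 10 CPM on average, were MAT2B, SP110 and LIPA. Their Pearson correlations with CFB were 0.996, 0.996 and 0.996, which describe 6 libraries in 2 groups and carry no test. MAT2B, the regulatory subunit of methionine adenosyltransferase, had a log2 fold change of 0.18 (adjusted p = 0.0727 by edgeR). SP110, a nuclear body protein, had a log2 fold change of 1.29, and LIPA, the lysosomal acid lipase, one of 0.48.

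C3, the central component on which all pathways converge, was almost undetected. It had 3, 10 and 4 counts in the siALDOA libraries and 5, 2 and 6 counts in the siControl libraries. The ranges of both groups overlapped, and siALDOA replicate 2 was highest. The ratio of the summed rates was 1.43, with an exact 95% interval of 0.656 to 3.21 that covers counting error only, so that no difference was detectable at this depth. CFB rose in cells whose C3 mRNA stayed at or below 0.333 CPM in every library.

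The proteases of the classical pathway also had few counts. C1R, which cleaves and activates C1s, had 40, 38 and 36 counts with siALDOA and 22, 30 and 33 counts with siControl. Every siALDOA library was above every siControl library both in counts and in CPM. The log2 fold change was 0.56 (SE 0.35), which missed the threshold with an adjusted p = 0.355 by edgeR. C1S, the protease that cleaves C4 and C2, had 11, 6 and 1 counts with siALDOA and 7, 11 and 6 counts with siControl, with overlapping groups. Its rate ratio was 0.823 (exact 95% interval 0.421 to 1.58). SERPING1, which encodes the inhibitor of both proteases, had 2, 1 and 2 counts with siALDOA and 0, 0 and 3 counts with siControl. The groups overlapped here too, and the rate ratio was 1.83 (exact 95% interval 0.356 to 11.8). C1R overlaps C1RL (48.2 CPM on average) by 2954 bases, C1S overlaps LPCAT3 (72.9 CPM) by 30219 bases and C3 overlaps GPR108 (33.5 CPM) by 649 bases, so that reads of these more abundant genes could be among the few counts. A readthrough gene that is not among the counted symbols (ENSG00000290146) also overlaps C1S, by 9170 bases on the same strand.

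The 3 membrane regulators all passed the filter on low counts. CD55, the decay-accelerating factor that dissociates C3 convertases, is held in the membrane by a glycosylphosphatidylinositol (GPI) anchor, and CD46 is a transmembrane cofactor for the cleavage of C3b and C4b by factor I. Both genes lie on chromosome 1 of hg38, plus strand, CD55 (ENSG00000196352) at chr1:207321519-207386804 and CD46 (ENSG00000117335) at chr1:207752037-207795513. The 250 bases before their RefSeq starts (GRCh38.p14, plus strand) are shown because these were the 2 members called lower. The CD55 window is chr1:207321428-207321677, and the first of 2 CD46 windows is chr1:207751788-207752037.

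CD55: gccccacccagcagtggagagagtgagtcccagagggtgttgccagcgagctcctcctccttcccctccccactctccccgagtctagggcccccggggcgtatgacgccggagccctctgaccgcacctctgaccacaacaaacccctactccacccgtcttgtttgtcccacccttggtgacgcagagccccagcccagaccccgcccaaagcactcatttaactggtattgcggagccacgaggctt
CD46: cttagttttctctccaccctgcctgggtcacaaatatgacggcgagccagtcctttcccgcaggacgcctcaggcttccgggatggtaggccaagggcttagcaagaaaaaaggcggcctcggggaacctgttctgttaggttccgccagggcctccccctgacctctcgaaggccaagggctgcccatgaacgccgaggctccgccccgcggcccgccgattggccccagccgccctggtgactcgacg

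None of the ISRE core, GAS and kB letters occurs in either window, which says only that these letters are not there. In GENCODE release 44, 159 bases of the CD55 window and 1 base of the CD46 window lie in alternative first exons of the same gene. RefSeq windows were matched for 6 of the 9 members, and C3, C1S and SERPING1 were not matched. In at least 1 of their 11 windows, the GAS was found for CFB, C1R and CD59 (8.09% of all symbols with windows), the kB consensus for CFB and LCN2 (11.8%), and the ISRE core for CFB (3.71%). CD59 has 4 windows and C1R 2, of which only the second held the GAS.

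CD55 stood at 32.5, 30.7 and 33.9 CPM with siALDOA and at 42.2, 41.0 and 41.4 CPM with siControl. All siALDOA libraries lay below all siControl libraries, and the siControl libraries were close together. The log2 fold change was -0.36 (SE 0.073, adjusted p = 0.00265 by edgeR), on means of 32.4 ± 1.61 and 41.5 ± 0.652 CPM (SD, n = 3 each). CD55 passed the threshold in 15 of 15 alternatives, with the largest adjusted p, 0.0487, under scaling by library totals only. Its log2 CPM was followed most closely by CEMIP2, a cell surface hyaluronidase, HMOX1, heme oxygenase, and CARS1, cytosolic cysteinyl-tRNA synthetase. Their Pearson correlations over the 6 libraries were 0.999, 0.998 and 0.997, and their log2 fold changes were -0.33, -0.53 and -0.30.

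CD46 stood at 376, 338 and 331.5 CPM with siALDOA and at 422, 416 and 400.4 CPM with siControl. The groups did not overlap, and siALDOA replicate 1 came nearest to the siControl libraries. The log2 fold change was -0.24 (SE 0.059, adjusted p = 0.0104 by edgeR), on means of 348.5 ± 24.0 and 413 ± 11.0 CPM (SD, n = 3 each). The call was kept in 12 of 15 alternatives, whose adjusted p ranged from 4.28e-04 to 0.208. It was lost under scaling by library totals only (-0.17, adjusted p = 0.208), without siALDOA replicate 2 (-0.22, adjusted p = 0.0651) and without siALDOA replicate 3 (-0.21, adjusted p = 0.0637). The noncoding MIR29B2CHG overlaps 34864 bases of the CD46 locus on the other strand and averaged 2.65 CPM, with a log2 fold change of 0.31 (SE 0.25). Without strand information, reads from both could not be told apart. The genes closest to CD46 in log2 CPM were SLC44A1, a choline transporter, ZFR, an RNA-binding protein, and UGT1A10, a glucuronosyltransferase that shares exons with the other UGT1A genes. Their Pearson correlations over the 6 libraries were 0.997, 0.996 and 0.995, and their log2 fold changes were -0.15, -0.17 and -0.35.

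CD59, a GPI-anchored protein that blocks assembly of the membrane attack complex, stood at 239, 221 and 223 CPM with siALDOA and at 240.1, 255 and 245 CPM with siControl. The groups did not overlap, but siALDOA replicate 1 was close to siControl replicate 1. The log2 fold change of -0.12 (SE 0.056) did not pass the test (adjusted p = 0.211 by edgeR), and the call was absent in 15 of 15 alternatives. The gene (ENSG00000085063) lies at chr11:33703010-33736479 on the minus strand. A readthrough gene of GENCODE (ENSG00000284969) overlaps it by 19458 bases on the same strand, introns included. Its reads could be among those of CD59, whose exon sequence is 10557 bases long.

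Since CD55 and CD59 need a GPI anchor, the genes of GPI anchor synthesis and remodelling were read as a list. All 28 were tested, of which 1 was higher and 2 were lower, with a median log2 fold change of 0.03. These counts are near the shares over all tested genes (4.36% higher and 5.29% lower), and nothing particular to the list is read from them. PIGF, needed for adding ethanolamine phosphate to the anchor, had a log2 fold change of -0.51 (SE 0.090, adjusted p = 7.78e-04 by edgeR) and was called in 15 of 15 alternatives. PIGV, a mannosyltransferase, had one of 0.32 (adjusted p = 0.00974 by edgeR), also called in 15 of 15. PIGN, an ethanolamine phosphate transferase, had one of -0.31 (adjusted p = 0.0479 by edgeR), but was called in 6 of 15. Its call was lost without each library other than siControl replicate 2, under library totals only, upper quartile scaling and limma-voom, and with the ribosomal RNA covariate. The most abundant gene by CPM, PIGT, a subunit of the transamidase that attaches the anchor, had a log2 fold change of -0.13 (SE 0.070).

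LCN2 encodes a lipocalin that binds bacterial siderophores and is secreted by inflamed epithelium. It stood at 65.0, 94.1 and 77.3 CPM with siALDOA and at 72.8, 106 and 93.3 CPM with siControl. The groups overlapped, replicate 1 was lowest and replicate 2 highest in both, and each siALDOA library was below the siControl library of the same number. The log2 fold change of -0.20 (SE 0.11) did not pass the test (adjusted p = 0.304 by edgeR). Over the alternatives the adjusted p ran from 0.0165 to 0.797 and the log2 fold change from -0.35 to -0.08. Without siALDOA replicate 1 or siControl replicate 2 it was -0.08, under library totals only -0.13, without siALDOA replicate 2 -0.35 and without siControl replicate 1 -0.34, and none of these passed the test. LCN2 was called lower in 3 of 15 alternatives, among them without a filter on low counts (-0.21, adjusted p = 0.0354) and, in an alternative added after the data were seen, with the ribosomal RNA share as a covariate (-0.35, adjusted p = 0.0372).

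LCN2 was compared with 22 other epithelial antimicrobial and acute-phase genes, of which 9 were tested, with 2 higher, 1 lower (4.36% and 5.29% over all tested genes) and a median log2 fold change of -0.15. STAT3, the transcription factor of the acute-phase response, had a log2 fold change of 0.26 (adjusted p = 0.00839 by edgeR), not called without siALDOA replicate 3 or siControl replicate 2. CEBPB, another acute-phase transcription factor, had one of -0.20 (adjusted p = 0.0292 by edgeR). Its call was lost under library totals only and without siALDOA replicate 3, siControl replicate 2 or siControl replicate 3. PIGR, which carries IgA across the epithelium, had one of 0.59 (adjusted p = 0.0423 by edgeR) and was called in 9 of 15 alternatives. Its call was lost without each library other than siControl replicate 3, and with the ribosomal RNA covariate. LYZ, which encodes lysozyme and was the most abundant by CPM, had a log2 fold change of 0.11 (SE 0.065). Among the 13 genes that were not tested, SAA2 and S100A8 had 0 counts in each library.

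Levels were compared between genes as RPKM, the CPM divided by the kilobases of exon sequence. In siControl the order was LCN2 at 56.8 ± 10.4, CD46 at 26.6 ± 0.708, CD59 at 23.4 ± 0.740, CD55 at 4.05 ± 0.0636, CFB at 2.13 ± 0.130 and C1R at 0.155 ± 0.0286 RPKM (SD, n = 3 each). Each gene from CD46 on was below the one before it in all siControl libraries. C1S at 0.0308, C3 at 0.0117 and SERPING1 at 0.00420 RPKM came last, and the ranges of the latter 2 overlapped. With siALDOA the order of CD55 and CFB was exchanged, with 3.16 ± 0.157 RPKM for CD55 and 4.53 ± 0.259 RPKM for CFB (SD, n = 3 each). The siALDOA libraries of CD46 (21.4 to 24.2 RPKM) and CD59 (20.9 to 22.6 RPKM) overlapped. These levels depend on the length used, and with the longest transcript the siControl order of the 9 genes was the same, although CD55 was then at 10.98 RPKM and CFB at 2.74 RPKM. With that length CD55 also stayed above CFB with siALDOA, at 8.56 and 5.82 RPKM.

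**Figure D3:**
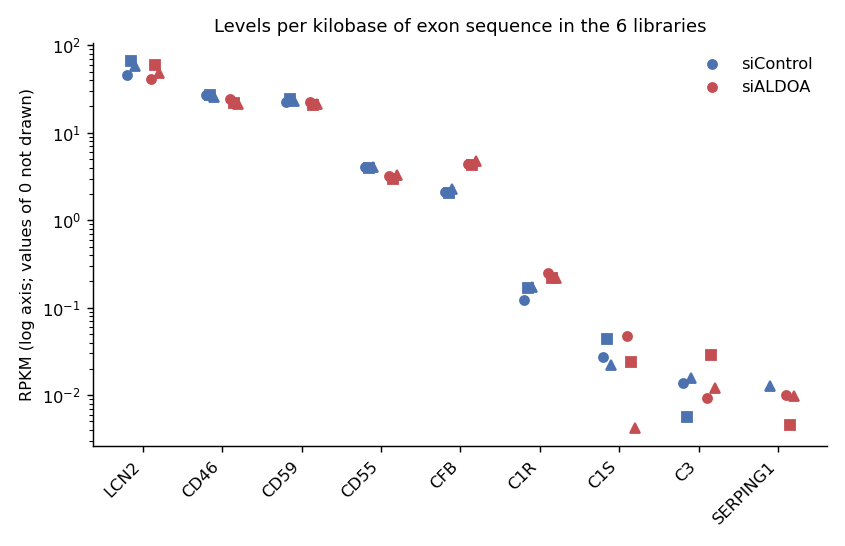
Levels of the 9 genes in RPKM over the union of exons (y axis, log scale, values of 0 not drawn) in siControl (blue) and siALDOA (red) libraries, with circle, square and triangle for replicates 1, 2 and 3. The order of CD55 and CFB is exchanged between the groups, from 4.05 and 2.13 RPKM to 3.16 and 4.53 RPKM, with this length.

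Beyond these members, 47 further complement genes were listed and 16 of them were tested. At an adjusted p < 0.05, 2 were higher and 0 were lower, beside 4.36% and 5.29% over all tested genes, with a median log2 fold change of 0.06. Without siControl replicate 2 there was 1 higher, and without siControl replicate 3 there were 0. At an unadjusted p < 0.05 in edgeR, 3 were higher and 1 was lower, and limma-voom and DESeq2 also called 0 lower at an adjusted p < 0.05. CALR, calreticulin, an endoplasmic reticulum chaperone that serves as a receptor for C1q at the cell surface, stood at 504.5, 518 and 488 CPM with siALDOA and at 421.5, 435 and 427 CPM with siControl. The groups did not overlap, and the log2 fold change was 0.24 (SE 0.053, adjusted p = 0.00647 by edgeR). The call of CALR was lost without siControl replicate 3 (adjusted p = 0.0524).

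In total, 14 of the 16 tested complement genes did not pass the test. Among the initiators, C1RL, a C1r-like protease, had a log2 fold change of 0.06 (SE 0.079) and MASP2, the lectin pathway protease, one of 0.34 (SE 0.25). C4A and C4B, which encode near-identical forms of C4 so that reads could be split between them, had 0.32 (SE 0.27) and 0.39 (SE 0.18). C5, the source of the terminal pathway, had -0.05 (SE 0.30), and CFD, the protease that cleaves factor B, had -0.10 (SE 0.31). C8G, a subunit of the membrane attack complex with 8 to 24 counts per library, had 0.89 with a standard error of 0.50. Among the soluble regulators, C4BPA and C4BPB, the chains of the C4b-binding protein, had -0.05 (SE 0.50) and -0.60 (SE 0.32), and CLU, clusterin, had 0.07 (SE 0.23). Over the alternatives C4BPB ran from -0.91 to -0.18. C4BPA ran from -0.50 to 0.31 and CLU from -0.22 to 0.39, and C1RL, C2, C5 and CFD also took both signs. The anaphylatoxin receptor C5AR1 had 0.24 (SE 0.36), ITGAM, a chain of complement receptor 3, had -0.74 (SE 0.48), and C1QBP, a mitochondrial protein that binds C1q, had -0.15 (SE 0.070). Of the 31 genes that were not tested, 16 had 0 counts in all libraries, among them C1QA, C1QB, C1QC, C9 and MBL2. Counts of CFI, the protease for which CD46 is a cofactor, were 3 in siControl replicate 2 and 0 in the other libraries.

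**Figure D4:**
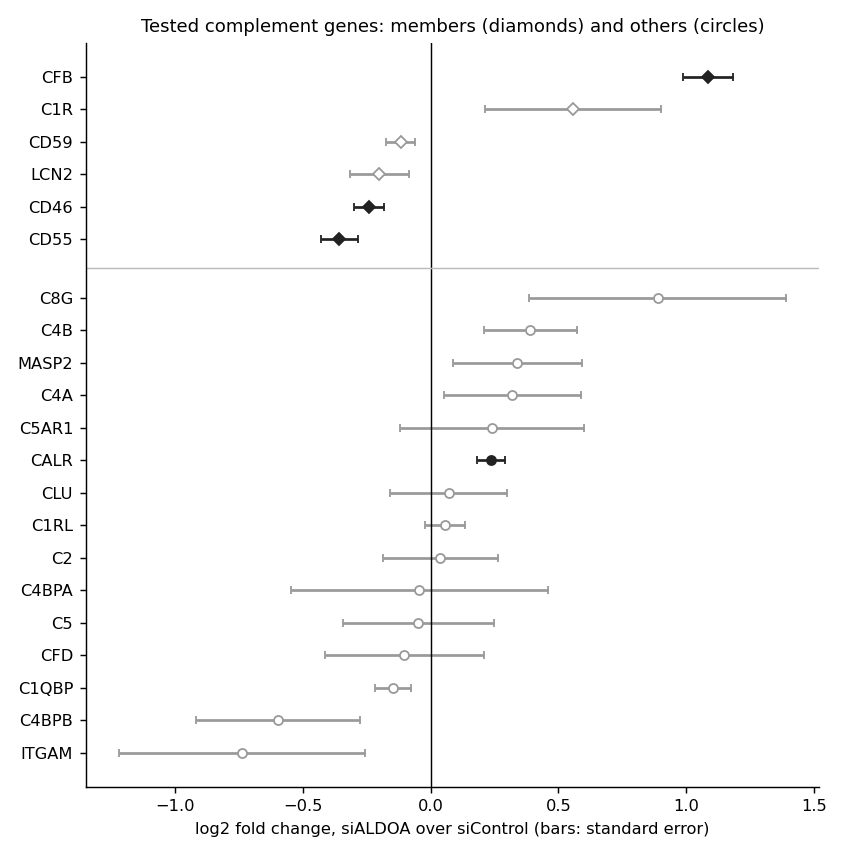
Log2 fold change of siALDOA over siControl (x axis) for the 6 tested members (diamonds) and 15 of the other tested complement genes (circles), with bars for the standard error and filled symbols for an adjusted p < 0.05. CFB at 1.09 and CALR at 0.24 are filled on the right, and CD46 at -0.24 and CD55 at -0.36 on the left.

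The epithelial label was checked with marker genes. All 10 epithelial markers were tested, 1 higher and 1 lower (4.36% and 5.29% over all tested genes), and their summed level was 9478, 9653 and 9808 CPM with siALDOA and 10040, 10315 and 10599 CPM with siControl. KRT8, the keratin with the highest CPM among them, averaged 5344 CPM over the 6 libraries, with a log2 fold change of -0.14 (SE 0.084). It was not called in the main analysis, was called lower under limma-voom and with the ribosomal RNA covariate, and stood at -0.06 under library totals only (adjusted p from 0.0218 to 0.824 over the alternatives). KRT19 had a log2 fold change of 0.38 (adjusted p = 5.77e-04 by edgeR). KRT18 had one of -0.28 (adjusted p = 0.0152 by edgeR), which was lost under library totals only and without siALDOA replicate 2, siALDOA replicate 3, siControl replicate 2 or siControl replicate 3. The hepatocyte list, for the main source of plasma complement, held 0 tested genes of 10, and summed to 0.683, 0.433 and 0.704 CPM with siALDOA and 0.577, 0.393 and 0.607 CPM with siControl. Its defining marker ALB was at 0 in every library, and its most abundant gene by CPM, HPX, averaged 0.212 CPM.

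Of 10 fibroblast markers 2 were tested and 0 called, with summed levels of 4.17, 3.16 and 4.36 CPM with siALDOA and 4.46, 3.08 and 3.67 CPM with siControl. COL1A1 was its most abundant gene by CPM at 2.15 on average, and COL1A2 and PDGFRA were at 0 in every library. Of 10 myeloid and blood markers 3 were tested and 1 was higher (4.36% over all tested genes), with summed levels of 31.3, 32.4 and 31.9 CPM with siALDOA and 25.9, 28.8 and 30.2 CPM with siControl. The gene called was the most abundant, CD14, the lipopolysaccharide coreceptor, with a log2 fold change of 0.32 (adjusted p = 0.0485 by edgeR) that was called in 8 of 15 alternatives. Its call was lost without each library other than siALDOA replicate 1, under limma-voom and with the ribosomal RNA covariate. TYROBP and CD163 were at 0 in every library, and PTPRC, which marks all leukocytes, had 1 count in 1 library.

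**Figure D5:**
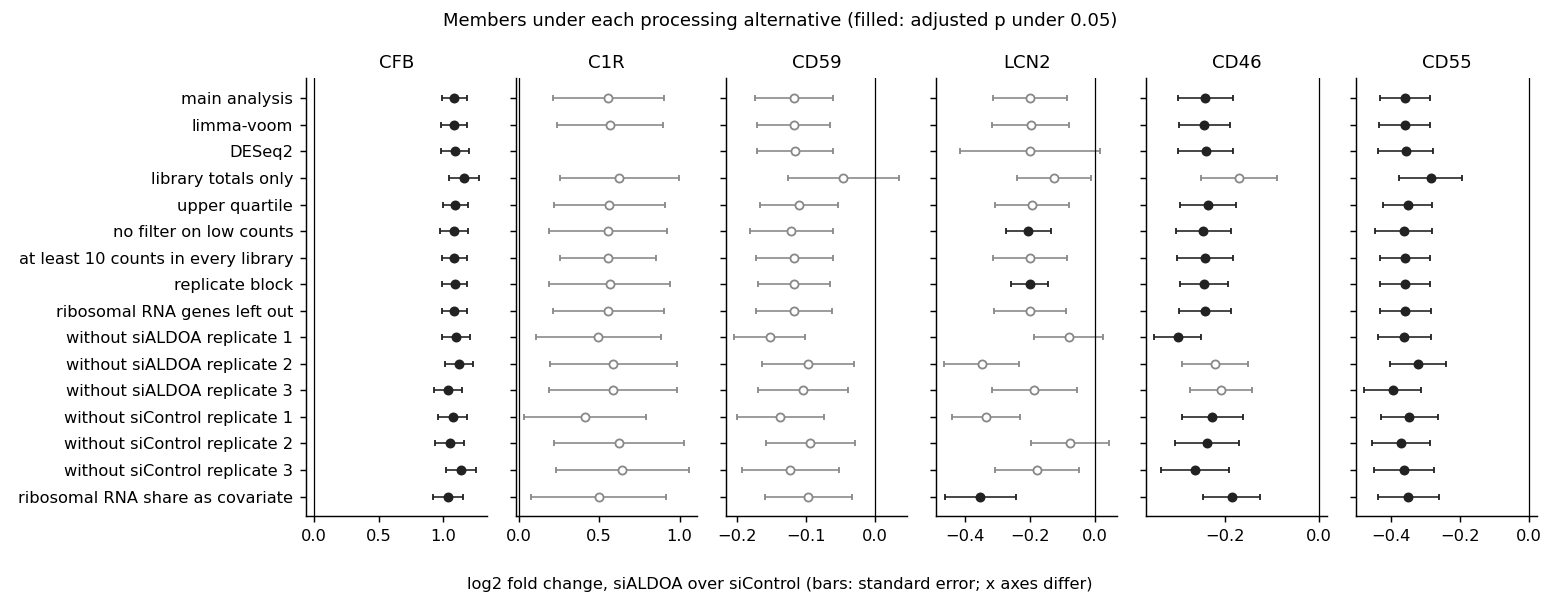
Log2 fold change of siALDOA over siControl for the 6 tested members (panels, x axes differ) under the main analysis and 15 alternatives (rows), with bars for the standard error and filled symbols for an adjusted p < 0.05. CFB and CD55 are filled in each row, CD46 is open in 3 of the alternatives and LCN2 is filled in 3, and no point is drawn for C1R under DESeq2, which gave no adjusted p.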

How the data were processed

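Total RNA of HT29 cells was sequenced in 6 libraries, 3 per group. The authors used tophat2 for alignment to hg38 and gfold for counting, and deposited whole-number counts per gene symbol without normalization. Their annotation, strand setting and treatment of multi-mapped reads are not given in the sources used here. Counts were tested in R 4.3.3 with edgeR 4.0.16 (filterByExpr, TMM, quasi-likelihood F-test, no covariate, Benjamini-Hochberg adjustment over all 15307 tested genes). Standard errors are the log2 fold change over the square root of F, and log2 CPM used a prior count of 2. Alternatives used limma 3.58.1, DESeq2 1.42.0, other scalings and filters, a replicate block, ribosomal RNA genes left out and each library left out. Those added after the data were seen were an unadjusted p < 0.01 and the ribosomal RNA share as a covariate. The test was checked on simulated data. Positions and lengths are from GENCODE release 44. Overlaps between genes are counted over whole gene spans, introns included, and the overlap of their exons was not measured. Named genes are the 9 members, ALDOA, the tested genes of the other complement list, up to 3 called genes by p and the most abundant gene of each other list, and the 3 genes closest in log2 CPM to each called member. Others were chosen after their values were seen, namely the listed genes at or near 0, the neighbours by position, OAS1 and IRF9. Of the listed genes, 2 are counted in the totals and medians but are not reported here by name or drawn. The members and lists were chosen with earlier results of these data known.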

Additional observations from a re-analysis of the deposited data

How the results depend on the processing

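The log2 fold changes of the 6 tested members kept their direction under every alternative that gave a value for them, and 175 of the 191 recomputed counts and fold changes kept their side of the threshold or stayed within 1.5 times, while 10 counts moved further, 3 fold changes gained a call and 3 lost one. Under scaling by library totals only, 279 genes and 1 member were lower, and CD46 lost its call (-0.17). LCN2 was called lower without a filter on low counts (-0.21) and with the ribosomal RNA share as a covariate (-0.35). With the replicate number as a block LCN2 was also called lower (-0.20, adjusted p = 0.0165). This block raised the counts of called genes, though none by over 1.5 times. With it 987 genes were higher and 1175 lower, compared with 668 and 810 in the main analysis, and 3 members were lower. Deviations of libraries with the same number from their group means correlated at 0.0348, 0.0274 and 0.0262 across genes, and each library correlated best with its own number, a hint from the data and not from the design. With 1 library left out at a time, 359 to 644 genes were higher and 471 to 790 lower, 1 to 2 members were lower, 0 to 2 other complement genes were higher, and the log2 fold change of CD46 ran from -0.30 to -0.21. DESeq2 gave no adjusted p for C1R. With the longest transcript as gene length the siControl levels rose, to 103 RPKM for LCN2. Why these values moved was not tested. At 0 to 11 counts per library, C3, C1S and SERPING1 could show only changes outside their counting intervals.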
